A study of Mus musculus with 8 samples.

Results

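The Mllt and Aff genes encode proteins that meet at the step where RNA polymerase II leaves its pause and elongates, and most were discovered as leukaemia fusion partners of the histone methyltransferase MLL, now called KMT2A. The set described here holds 5 Mllt genes (Mllt1, Mllt3, Mllt6, Mllt10 and Mllt11) and 4 Aff genes (Aff1, Aff2, Aff3 and Aff4). Members were taken as the rows of the count table that carry these symbols, which gave 9 of 55416 genes. All 9 were given an adjusted p in the comparison of genotypes, as were 18627 genes in all. The set was chosen on earlier results of the same libraries, because the text of the study names Mllt1 and its picture shows Mllt11 among predicted microRNA targets that were lower in the mutant cortex. The differences in these 2 genes are therefore given as a description with no test, while the other 7 were not named by the study and keep their place in the test across all genes.

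Messenger RNA was sequenced from the cerebral cortex of 4 heterozygous Ago2 knock-in mice (genotype AGO2_L192P/+, here L192P) and 4 wild-type mice (WT), 1 library per sample. Ago2 encodes an Argonaute protein, which carries microRNAs to messenger RNAs, and the L192P exchange stands for a patient variant introduced by CRISPR editing, with founders crossed to C57/Bl6 mice. Ages and sexes of the mice were not given in the sources used here, the knock-in allele is not restricted to a cell type, and cortex tissue is a mixture of cell types. A lower bulk count can come from fewer cells of a type or from less RNA per cell, and these cannot be told apart here. P-values measure the spread between these samples, whose replicate numbers the labels do not explain.

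The members fall into 4 kinds by their known roles. Mllt1 (ENL) and Mllt3 (AF9) are YEATS-domain proteins that read acylated lysines on histones and join the super elongation complex or the DOT1L complex. Mllt6 (AF17) and Mllt10 (AF10) are PHD-finger proteins that bind the histone methyltransferase DOT1L. Aff1 and Aff4 are the scaffolds on which the super elongation complex assembles around P-TEFb, the kinase that releases paused polymerase, and Aff2 and Aff3 are scaffolds of related complexes. Mllt11 (AF1q) shares the fusion history but not the complex: it is a small protein that is abundant in neurons.

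MicroRNAs recognise messenger RNAs through bases 2 to 8, the seed. The mouse miR-29-3p sequences follow, since the picture of the study ties Mllt11 to this family, and the miR-92-3p sequences follow them, since the text ties Mllt1 to that family. The text and the legend of the study name these different families for the same panel, and which was meant was not settled here. The sequences were taken from RefSeq, and capitals mark the seed.
miR-29a-3p: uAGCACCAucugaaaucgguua
miR-29b-3p: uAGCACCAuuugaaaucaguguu
miR-29c-3p: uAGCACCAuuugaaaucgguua
miR-92a-3p: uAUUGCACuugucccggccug
miR-92b-3p: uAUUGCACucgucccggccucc

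The 3 miR-29-3p sequences share 1 seed, and so do both miR-92-3p sequences. The 3′ UTR of the canonical transcript of each member was searched, on the transcript strand, for the 7 bases complementary to these seeds (TGGTGCT for miR-29-3p and GTGCAAT for miR-92-3p). A miR-29-3p match stood in 3 of the 9 members, against 16.7% of 14860 tested genes with an annotated 3′ UTR. That share was not adjusted for 3′ UTR length. The 4 matches in these 3 members are shown with their neighbouring bases, 5′ to 3′ in the transcript, and capitals mark the match.
Mllt11: ctattgtgctggTGGTGCTgatga
Mllt6: gaggcgagctggTGGTGCTattcc
Aff4, first: cctacgtgttcaTGGTGCTgcttt
Aff4, second: actgcctggagcTGGTGCTcagag

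On GRCm39 the Mllt11 match lies on the minus strand at chr3:95127383-95127389, from base 107 of a 3′ UTR of 1641 bases. The Mllt6 match lies on the plus strand at chr11:97574625-97574631, and it is the only 1 of the 4 followed by an A, the base that makes an 8-base site. Both Aff4 matches are on the plus strand, at chr11:53308610-53308616 and chr11:53309636-53309642, in a 3′ UTR of 6812 bases. No miR-92-3p match was in the canonical or longest annotated 3′ UTR of any of the 9 members, Mllt1 included. In the canonical 3′ UTR, 8.08% of tested genes held one. Sites that match fewer bases of the seed were not searched, so their presence in Mllt1 is not known here. A match is a stretch of letters and not evidence of binding, and these libraries do not measure microRNAs.

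Library totals ran from 20396357 to 43575900 counts, with WT replicate 2 the deepest. Both replicate 1 libraries stood apart from the other 6 in Xist, the RNA of the inactive X chromosome, at 0.93 and 1.82 normalized counts against 5185 to 7257. Ago2 had 2222 to 2398 normalized counts in L192P and 2083 to 2380.3 in WT, and since the knock-in exchanges 1 residue, this level does not check the labels. Defining cortical neuron genes were present in every library, Slc17a7 at 28887 to 34033 normalized counts. Of 5 hypothalamic markers, 2 passed the test across all genes, both higher in L192P: Avp had 328.9, 19.3, 459 and 220.4 normalized counts in L192P replicates 1 to 4 against 10.5 to 21.9 in WT (log2 fold change 4.22; adjusted p = 0.000155, DESeq2). Oxt had 144.8, 19.3, 143 and 155 against 2.73 to 7.60 without overlap (log2 fold change 4.53; adjusted p = 3.69e-07, DESeq2). Pmch reached 261.7 in L192P replicate 3 against at most 3.64 in WT and was at 0 in L192P replicate 4 and in WT replicates 3 and 4, and DESeq2 gave no adjusted p for Pmch or Hcrt.

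Per length, Mllt11 stood far above the other members in cortex and Aff2 far below. Levels here are normalized counts per kilobase of exon, averaged over the 8 libraries with their SD. Mllt11 had 1692 ± 203 and lay above 97.4% of tested genes. The ubiquitous factors Mllt6 (363 ± 44.4) and Aff4 (361 ± 28.1) followed, with overlapping ranges. Mllt1 (192.3 ± 24.3) and Aff3 (152 ± 7.91) came next and also overlapped, from 161 to 225 and from 145 to 166. Mllt3 (67.6 ± 8.22), Mllt10 (52.1 ± 4.42) and Aff1 (49.6 ± 4.55) lay near the median of all tested genes, 58.2, and each overlapped its neighbour. Aff2 was the lowest at 15.6 ± 4.69 and overlapped no other member. With the length of the canonical transcript in place of all exons, Mllt6 and Aff4 changed places (372 and 476) and the other 7 kept their rank.

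**Figure D1:**
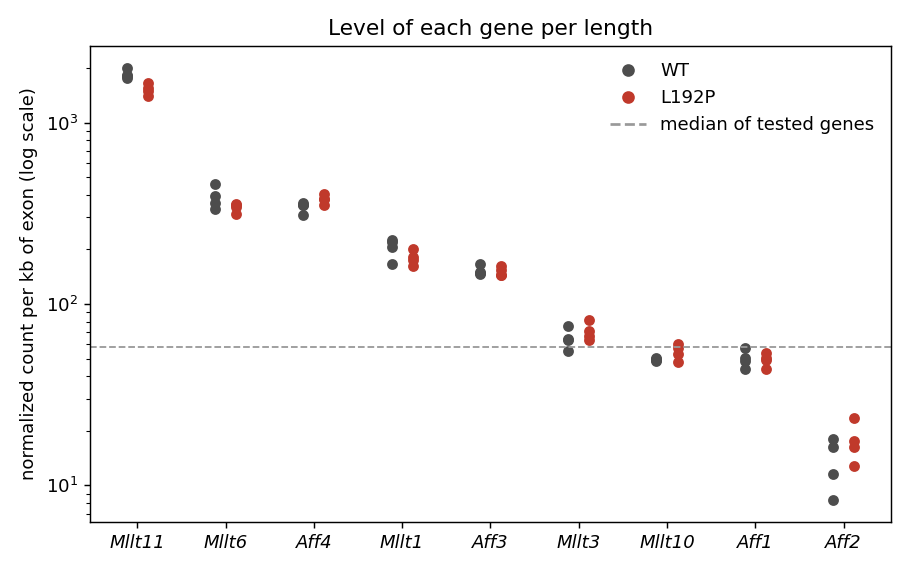
Normalized counts per kilobase of exon (log axis) of the 9 genes, ordered by their mean, with 1 point for each library of WT (grey) and L192P (red); the dashed line is the median of all tested genes, 58.2. Mllt11 sits above all others and Aff2 below, while Mllt6 with Aff4, Mllt1 with Aff3, and Mllt3, Mllt10 and Aff1 form overlapping tiers.

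Among the scaffolds, Aff4 made up 62.4% of the summed Aff level per kilobase (60.5% to 64.9% over the libraries), Aff3 26.4%, Aff1 8.59% and Aff2 2.66%. Among the YEATS pair, Mllt1 exceeded Mllt3 per kilobase in every library, 2.58 ± 0.411 times in L192P and 3.24 ± 0.778 times in WT (SD, n = 4). Among the PHD-finger pair, Mllt6 exceeded Mllt10 by 6.30 ± 0.880 times in L192P and 7.79 ± 1.15 times in WT. The ranges of both ratios overlapped between genotypes, with Mllt1/Mllt3 lower in L192P in 4 of 4 same-numbered pairs and Mllt6/Mllt10 in 3 of 4.

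Whether the L192P allele went with altered levels of these genes was examined in the fit across the whole table. None of the 7 genes that the study did not name passed an adjusted p of 0.05 by DESeq2, where 1.36% of all tested genes did. At an unadjusted p under 0.05, 1 of the 7 passed (Aff4), against 9.44% of tested genes. Of the 7, 0 were called by edgeR, limma-voom or limma-trend, which called 0.314%, 0.266% and 0.297% of all genes they tested. Mllt11, 1 of the 2 genes that chose the set, was the member whose genotypes did not overlap, which held for 5.97% of tested genes. The 9 log2 fold changes ran from -0.28 (Mllt11) to 0.39 (Aff2), with a median of -0.01 beside 0.0019 for all tested genes.

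Mllt11 (ENSMUSG00000053192, GRCm39 chr3:95125855-95139542, minus strand, 2 exons in the canonical transcript and 90 residues) was lower in L192P. It had 7605, 7099, 6419.9 and 6875 normalized counts in L192P replicates 1 to 4, and 9216, 8082, 8427 and 8329 in WT replicates 1 to 4. Every L192P library was below every WT library. The means were 6999 ± 493 in L192P and 8514 ± 490.4 in WT (SD, n = 4), so the mutant level was 82.2% of WT, a log2 fold change of -0.28 with an SE of 0.07. Within same-numbered libraries the log2 difference was -0.28, -0.19, -0.39 and -0.28. Taken as a description, as it was named on this contrast, this is the largest decrease of the set.

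Other transcripts moved with the same grouping as Mllt11. The summed level of 5 cortical excitatory neuron markers was 36274 to 41047 normalized counts in L192P and 41690.2 to 42943 in WT. These sums did not overlap. Taken alone, each of the 5 markers overlapped between genotypes, and 0 of the 5 passed the test across all genes by DESeq2. Slc17a7 made up most of the sum, with 28887 to 32580 in L192P and 32160 to 34033 in WT. The summed level of 4 striatal markers, which did not pass the test either, was 4674 to 5544 in L192P and 5636 to 7197 in WT, also without overlap. Expressed as a percentage of the summed excitatory markers, Mllt11 stood at 18.5, 19.0, 17.7 and 18.1 in L192P and at 22.1, 18.8, 20.2 and 19.4 in WT. On that scale L192P replicate 2 lay above WT replicate 2, and the genotypes overlapped. L192P was lower in the other same-numbered pairs, and the means were 18.3 ± 0.568 in L192P and 20.1 ± 1.43 in WT (SD, n = 4). The part of neuron content in the difference was not tested further. Of 5 interneuron markers 1 passed: Gad2 was higher, with 6849 to 7730 normalized counts in L192P and 4722 to 6717 in WT (log2 fold change 0.34; adjusted p = 0.0235, DESeq2), while Gad1 (0.06), Slc32a1 (0.14), Sst (-0.04) and Pvalb (-0.22) did not pass. The hypothalamic markers summed to 43.2 to 1064 normalized counts across the L192P libraries against 18.7 to 45.5 across WT, and these overlapped through L192P replicate 2 and WT replicate 1 alone, and their part in the Mllt11 difference was not tested. The summed levels of the other 8 marker lists overlapped between genotypes.

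Exons of Mllt11 overlap those of Cdc42se1 on the opposite strand over 1160 bases, 25.3% of its exon length. The strand setting of the counting was not given in the sources used here. Cdc42se1 itself had 1852 ± 109 normalized counts in L192P and 1863 ± 136 in WT, which left a log2 fold change of -0.0079. The smaller overlapping noncoding gene Gm16740 had 8.30 ± 3.89 and 8.48 ± 2.98. In all, 7 of the 9 members overlap an exon on the opposite strand (all but Mllt3 and Mllt6), and the 5 such neighbours that were given an adjusted p had log2 fold changes from -0.21 to -0.0079, all with an adjusted p of at least 0.870 by DESeq2.

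**Figure D2:**
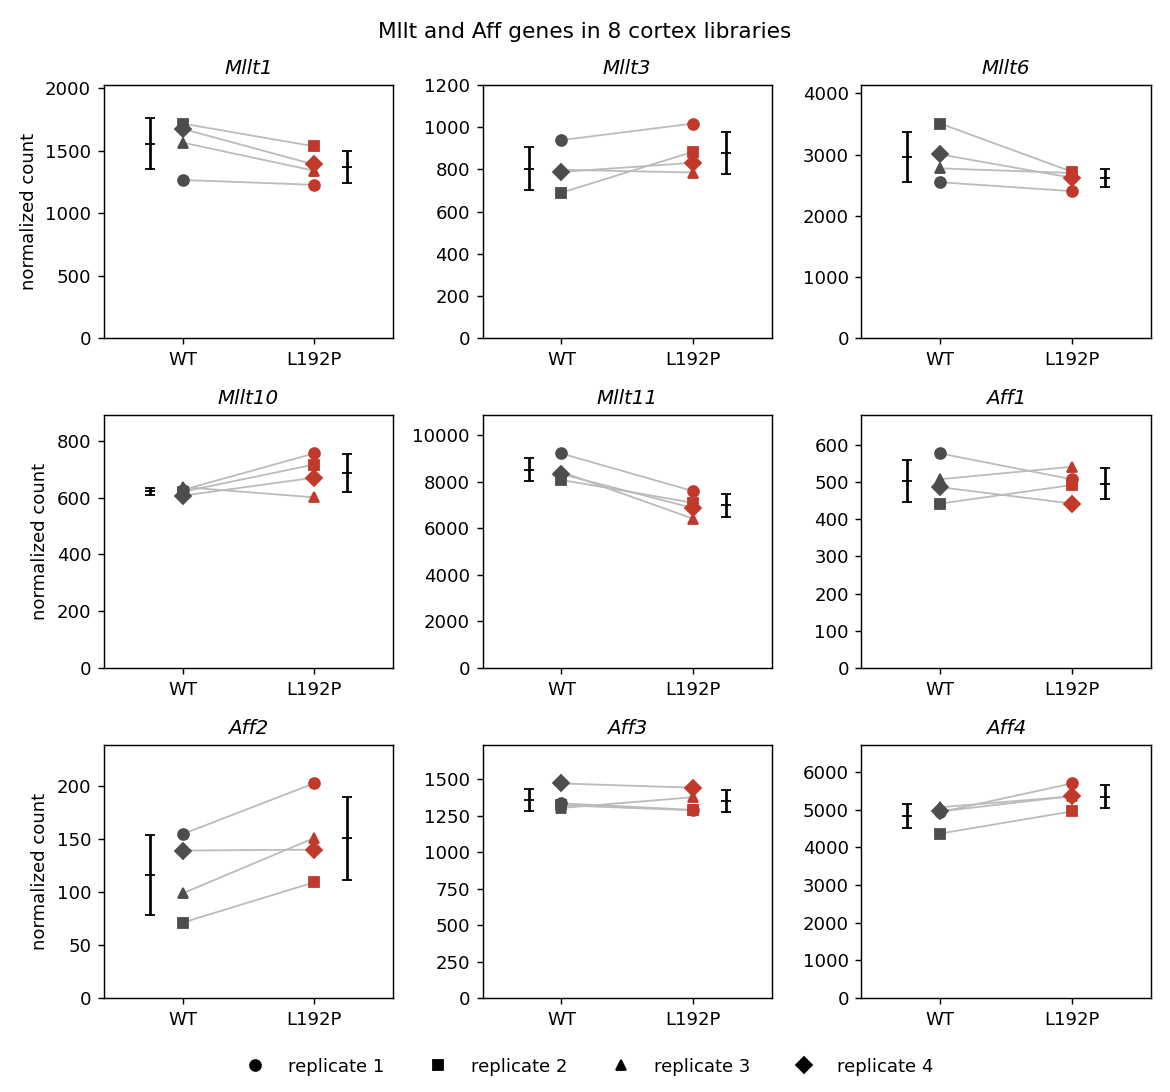
Normalized counts (linear axis from 0) of each gene in the WT (grey) and L192P (red) libraries; marker shapes give the replicate number, lines join same-numbered libraries, and black bars show mean and SD (n = 4). Only in the panel of Mllt11 do all 4 red points lie below all 4 grey points, while in the panel of Aff4 all 4 lines go up and the points still overlap.

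Mllt1, the YEATS gene that the text of the study names (ENSMUSG00000024212, GRCm39 chr17:57194061-57242685, minus strand, 547 residues), was lower on average, with overlapping genotypes. It had 1228, 1536, 1341 and 1391 normalized counts in L192P and 1267, 1718, 1566 and 1676 in WT. WT replicate 1 fell within the L192P range, and the other 3 WT libraries lay above it. The log2 fold change was -0.18 with an SE of 0.10. Over the alternative fits it ran from -0.27 (without WT replicate 1) to -0.13 (without WT replicate 2). All 4 same-numbered pairs were lower in L192P, by 0.05, 0.16, 0.22 and 0.27 on the log2 scale.

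Its paralog Mllt3 (chr4:87687837-87951610, minus strand, 569 residues) leaned the other way. Mllt3 had 1017, 883, 785 and 831 normalized counts in L192P and 939, 689.7, 798 and 788 in WT. The highest value of either genotype was in replicate 1, and the genotypes overlapped. The log2 fold change of 0.13 ± 0.11 (SE) did not pass the test (adjusted p = 0.818, DESeq2; 95% interval -0.08 to 0.35).

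Of the PHD-finger genes, Mllt6 (chr11:97554022-97576289, plus strand, 1079 residues), which holds the 8-base miR-29-3p match shown above, had 2404, 2722, 2700.3 and 2622 normalized counts in L192P and 2549, 3509, 2775 and 3004 in WT. WT replicate 2 was the highest of the 8 libraries and WT replicate 1 lay inside the L192P range, and L192P was lower in 4 of 4 same-numbered pairs. The log2 fold change of -0.18 ± 0.09 (SE) did not pass (adjusted p = 0.538, DESeq2; 95% interval -0.36 to 0.0020), and it was -0.09 without WT replicate 2. Mllt10 (chr2:18059984-18217205, plus strand, 1068 residues) had 755, 716, 601 and 669.6 normalized counts in L192P against 626, 620.2, 637 and 606 in WT. Mllt10 was more even in WT, with an SD of 12.6, than in L192P, with an SD of 66.3. Its log2 fold change of 0.14 ± 0.09 (SE) did not pass (adjusted p = 0.681, DESeq2; 95% interval -0.03 to 0.31).

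Aff4, the main scaffold by level (chr11:53241555-53313154, plus strand, 1160 residues), was higher in L192P in 4 of 4 same-numbered pairs. It had 5701, 4957, 5356 and 5365 normalized counts in L192P and 4937, 4370.0, 5069 and 4957 in WT. The lowest L192P library, replicate 2, was within the WT range. The means of 5345 ± 304 and 4833 ± 314 (SD, n = 4) gave a log2 fold change of 0.15 ± 0.07 (SE), which did not pass the test (adjusted p = 0.435, DESeq2). With the replicate number as a block, Aff4 passed narrowly (adjusted p = 0.0493, DESeq2) as 1 of the 7 unnamed members, where 4.25% of tested genes passed. With the same block and a correction for GC content it did not (adjusted p = 0.104, DESeq2). Aff4 carries 2 miR-29-3p matches, and Mllt11 and Mllt6 carry 1 match each. A link between these matches and the fold changes was not tested.

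Aff1, the other super elongation scaffold (chr5:103840240-104003188, plus strand, 1218 residues), differed little between genotypes. It had 507, 492, 541 and 442 normalized counts in L192P and 576, 442, 507 and 486 in WT, and the ranges overlapped almost fully. Its log2 fold change was -0.02 ± 0.11 (SE; adjusted p = 0.993, DESeq2), with a 95% interval from -0.23 to 0.19. The sign turned in 5 of 20 alternative fits.

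Aff3 (chr1:38214515-38704036, minus strand, 1216 residues), a scaffold expressed in neurons, was the steadiest member, with a coefficient of variation of 5.19% over the 8 libraries. It had 1290.2, 1287, 1377 and 1442 normalized counts in L192P and 1335, 1322, 1304 and 1472 in WT. Replicate 4 was the highest in both genotypes. The log2 fold change was -0.0089 ± 0.07 (SE; adjusted p = 0.994, DESeq2), the 95% interval ran from -0.15 to 0.13, and the sign turned in 7 of 20 alternative fits.

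Aff2 (chrX:68403900-68911643, plus strand, 1272 residues), the gene silenced in FRAXE intellectual disability, was the least expressed and most variable member, with 91 to 217 raw counts and a coefficient of variation of 30.1%. It had 203, 109, 151 and 140.15 normalized counts in L192P and 155, 71.2, 98.9 and 139 in WT. Each replicate 1 library, low in Xist, was the highest of its genotype, and both lay above all 6 other libraries. The same full separation of the replicate 1 libraries was seen for the autosomal members Mllt3, which was higher in them (939 to 1017 against 689.7 to 883 normalized counts), and Mllt1 (1228 to 1267 against 1341 to 1718) and Mllt6 (2404 to 2549 against 2622 to 3509), which were lower. Mllt10, Mllt11, Aff1, Aff3 and Aff4 overlapped. The share of all genes separated in this way is not given here, so the separation is not read as particular to these members. For Aff2, L192P was higher in 4 of 4 pairs, by 0.39, 0.62, 0.61 and 0.0087 on the log2 scale. The log2 fold change of 0.39 ± 0.24 (SE) did not pass (adjusted p = 0.679, DESeq2; 95% interval -0.09 to 0.87).

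**Figure D3:**
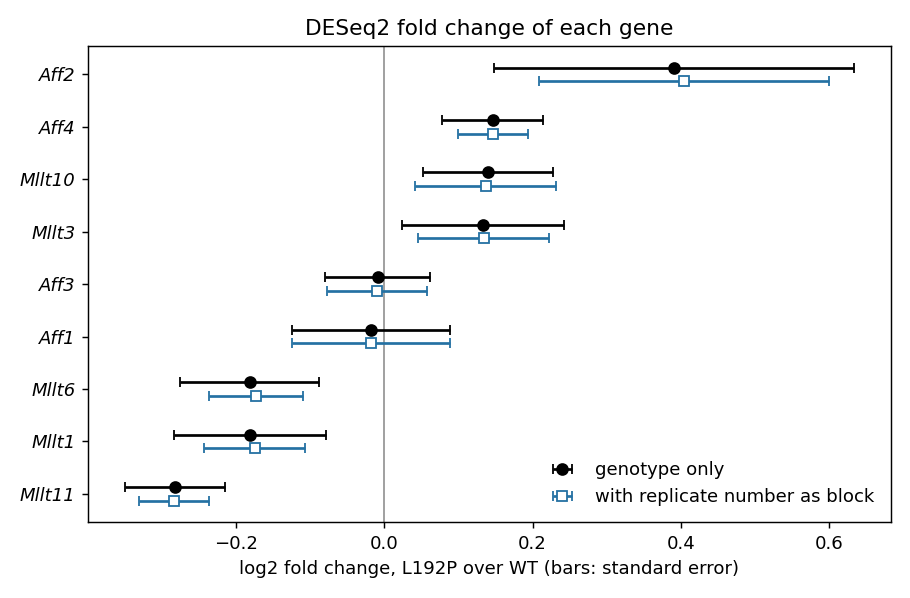
DESeq2 log2 fold change of each gene, L192P over WT, with genotype as the only term (filled circles) and with the replicate number as a block (open squares); bars are standard errors. The estimate for Aff4 stayed at 0.15 with the block, while its SE went from 0.0678 to 0.0475.

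Several members varied together across the libraries. Over the 8 libraries, log2 normalized counts of Mllt1 and Mllt6 had a Pearson correlation of 0.88, and those of Mllt6 ran opposite to Mllt3 (-0.89) and Aff4 (-0.87). Aff2 went with Aff4 (0.85) and Mllt3 (0.78) and opposite to Mllt6 (-0.84) and Mllt1 (-0.82). Mllt11 had correlations between -0.45 and 0.25 with the other 8. The libraries differed in depth, replicate number and base composition profile, which all genes of a library share, so the correlations are a description of 8 points. Canonical transcripts of Mllt1 and Mllt6 were the richest in GC (58.5% and 58.6%), and those of Mllt3, Aff4 and Mllt10 the poorest (41.3%, 44.7% and 47.1%). Aff2 and Mllt11 were both at 49.9% GC and differed in these correlations.

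Across 13396 tested genes with a mean of at least 50 normalized counts, the median log2 fold change was 0.05 in the lowest of 5 classes of GC content and -0.03 in the highest. In WT replicate 2 the 2 outer classes deviated from the mean of the 8 libraries by medians of -0.11 and 0.11 on the log2 scale, further apart than in the other 7 libraries. That library had the highest value of Mllt1 and Mllt6 and the lowest of Mllt3, Aff2 and Aff4. Correcting for GC content gave log2 fold changes of -0.15 for Mllt1, -0.15 for Mllt6, 0.09 for Mllt3, 0.13 for Aff4 and 0.13 for Mllt10. The correction left Mllt11, at 49.9% GC, at -0.27.

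**Figure D4:**
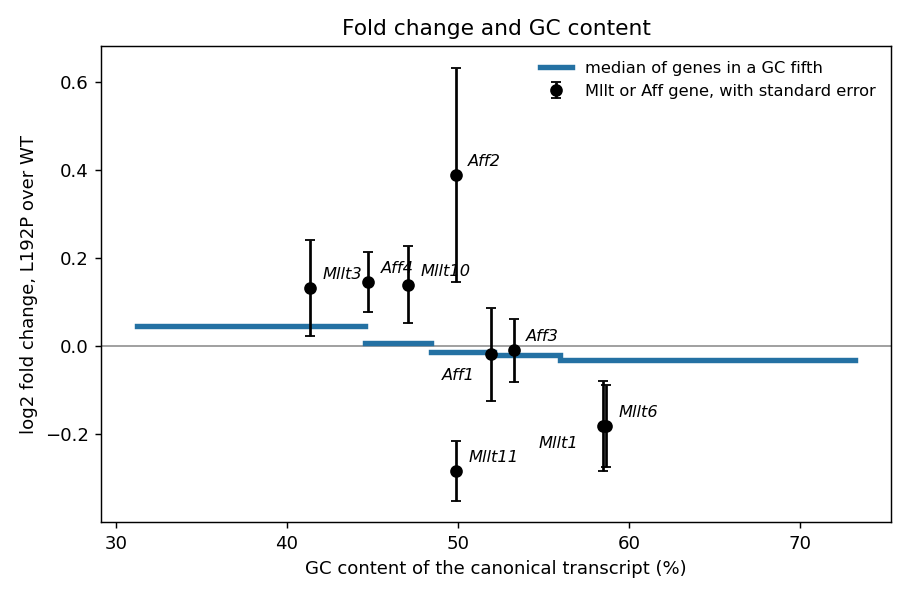
Log2 fold change (L192P over WT) of each gene against the GC content of its canonical transcript, with standard errors; blue bars are medians of tested genes in 5 GC classes of equal size. Mllt3, Aff4 and Mllt10 at low GC content lie above 0 and Mllt1 and Mllt6 at high GC content below it, with Mllt11 at -0.28 and Aff2 at 0.39 away from the blue bars.

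The genes whose levels most resembled those of Mllt11 over the 8 libraries, among 13413 genes, were Rpa3 (Pearson correlation of log2 values 0.98), which encodes a subunit of the single-stranded DNA binding protein RPA, Eid1 (0.97), an inhibitor of EP300, Klhl3 (0.97), an adaptor of a cullin ubiquitin ligase, Gde1 (0.97), a phosphodiesterase, and Ino80e (0.95), a subunit of the INO80 chromatin remodeler. All 5 had a negative log2 fold change, from -0.26 to -0.12. The genes nearest to Mllt1 were Prex1 (0.98), an activator of Rac, Cyp2d22 (0.98), a cytochrome of drug metabolism, Clstn3 (0.98), a synaptic adhesion protein, Hip1r (0.98), a clathrin-associated protein, and Dgkz (0.97), a lipid kinase. Their transcripts had GC contents from 52.7% to 61.0%, beside 58.5% for Mllt1. The correlations include the difference between genotypes and were chosen as the highest of many.

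The partners of these proteins gave no called gene. Of 84 genes in 9 lists of elongation and KMT2 factors, all were tested and 0 passed by DESeq2 or by edgeR. Of all tested genes, 1.36% passed by DESeq2 and 0.314% by edgeR. At an unadjusted p under 0.05, 6 of 84 (7.14%) passed, 3 of them lower, against 9.44% of all tested genes. Their log2 fold changes ran from -0.31 to 0.27, with a median of 0.02. Genotypes did not overlap for 7 of the 84, beside 5.97% of all tested genes.

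**Figure D5:**
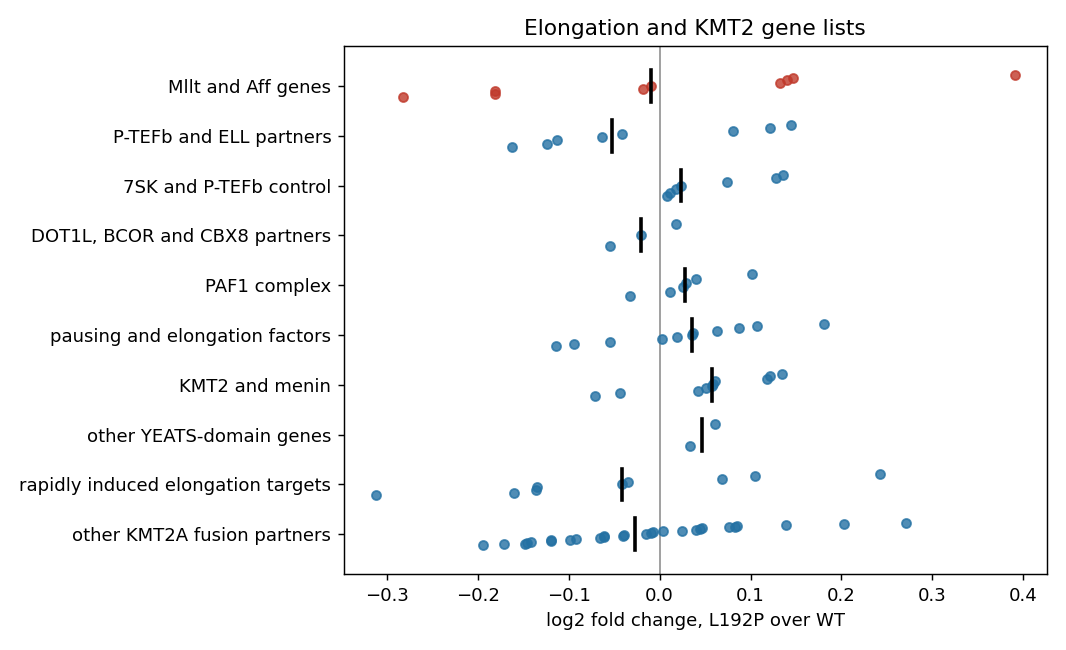
Log2 fold change (L192P over WT) of every gene in the Mllt and Aff set (red) and in 9 lists of partner genes (blue), 1 point per gene, with black bars at list medians. Medians of the 9 lists lie between -0.05 and 0.06, and 0 of the 84 partner genes passed the test, beside 1.36% of all tested genes.

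P-TEFb, the kinase that the Aff scaffolds hold, and its partners gave log2 fold changes from -0.16 to 0.14 over 8 genes. Its catalytic subunit Cdk9 had 1944 ± 24.9 normalized counts in L192P and 1998 ± 168 in WT (log2 fold change -0.04). The cyclins Ccnt1 (0.08) and Ccnt2 (-0.11) did not pass the test, and neither did Ell2 (-0.16 ± 0.07 SE; adjusted p = 0.396, DESeq2), an elongation factor of the complex. Among the 7 genes that hold P-TEFb inactive in the 7SK particle or recruit it to chromatin, log2 fold changes were between 0.0077 and 0.14. The inhibitor Hexim1 stood at 0.02, and the bromodomain proteins Brd2 at 0.0077 and Brd3 at 0.14, the last without overlap between genotypes (2086 ± 124 against 1898 ± 30.0 normalized counts; adjusted p = 0.422, DESeq2).

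The chromatin partners of the Mllt proteins did not pass the test either. Dot1l, the H3 methyltransferase bound by Mllt10, had a log2 fold change of -0.05 ± 0.10 (SE), and the Polycomb-related partners Bcor and Cbx8 of Mllt1 and Mllt3 had -0.02 and 0.02. In the PAF1 complex, a docking platform for elongation factors, Rtf1, Paf1, Ctr9 and Cdc73 ranged from 0.01 to 0.10. The other YEATS-domain genes Yeats2 and Yeats4 were at 0.06 and 0.03. Of the pausing and elongation factors, Supt5 (0.02), Supt6 (0.11), Tcea1 (0.04) and the FACT subunit Ssrp1 (0.0023) did not pass. The other FACT subunit, Supt16, named here after its values were seen, had the smallest adjusted p of the 84 genes (0.18 ± 0.07 SE; adjusted p = 0.239, DESeq2).

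Kmt2a, the gene to which these partners are fused in leukaemia, had 1902 ± 35.4 normalized counts in L192P and 1823 ± 152 in WT, which gave a log2 fold change of 0.06 ± 0.07 (SE; adjusted p = 0.915, DESeq2). Kmt2d (0.04), the core subunit Rbbp5 (-0.04) and Psip1 (0.12), which tethers the KMT2A complex to chromatin, did not pass. Among 28 other KMT2A fusion partners, the most abundant were Gas7 (-0.07), Abi2 (-0.04), Eps15 (-0.09) and Septin5 (-0.15). Of the 28, 0 passed by DESeq2, beside 1.36% of all tested genes.

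Genes that depend on rapid elongation upon stimulation had the widest range of log2 fold changes of the 9 lists, from -0.31 to 0.24. The immediate-early gene Egr1 had 6825, 6219, 6227 and 5548 normalized counts in L192P and 5616, 8316, 9465 and 7416 in WT. WT replicate 1 lay among the L192P libraries, and the log2 fold change of -0.31 ± 0.12 (SE) did not pass (adjusted p = 0.269, DESeq2). Jun had 1382, 1857, 1876 and 1697 in L192P and 1362, 1417, 1634 and 1345 in WT, higher in 4 of 4 pairs. Its log2 fold change of 0.24 ± 0.10 (SE) did not pass (adjusted p = 0.338, DESeq2), and it passed with the replicate number as a block (adjusted p = 0.0382, DESeq2), as 1 of the 84 partner genes (1.19%), where 4.25% of tested genes passed. Without both replicate 1 libraries, Egr1 (log2 fold change -0.49), Jun (0.30) and the fusion partner Lasp1 (-0.22), named here after its values were seen, passed, which is 3 of 84 (3.57%) beside 3.46% of tested genes. Fos (-0.13 ± 0.46 SE) and Junb (-0.16 ± 0.33 SE) overlapped between genotypes and did not pass the test.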

How the data were processed

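Libraries were prepared by the authors from cortex RNA with a stranded mRNA kit. The authors aligned reads to GRCm39 with STAR, assigned them to genes with featureCounts and deposited the count of each gene per library; the submitters' processing notes give STAR 2.7.9a, featureCounts 1.5.1 and DESeq2 1.40.2. The strand setting and Ensembl release were not given in the sources used here. The authors also deposited a normalized signal, counts divided by DESeq2 size factors, used here in limma-trend and as normalized counts.

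Deposited counts were fitted with DESeq2 1.42.0 (R 4.3.3), genotype as the only term, after the study's methods, and genes passed at a Benjamini-Hochberg adjusted p under 0.05 over the whole table. Intervals are normal 95% intervals of the fold change. Members and lists were chosen with earlier results of these data known. Named genes were the 9 members, Ago2, from each partner list the genes that passed and the 4 with the highest mean, and the 5 genes nearest to Mllt11 and Mllt1; 1 gene that this rule names is not reported here. Exons, 3′ UTRs and GC content came from GENCODE M39 on GRCm39, which held 98.8% of the gene IDs; Septin2 stood on 2 rows, and the one matching GENCODE was used.

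Library pairs of 1 genotype differed by 5.52 to 22.6 chi-square per degree of freedom, so each counted as a replicate. Deviations from the group mean correlated between same-numbered libraries at 0.63, 0.38, 0.23 and 0.33 over 13422 genes, and between -0.38 and 0.14 for the 12 other pairs. Same-numbered libraries were accordingly compared as pairs in the descriptions. The main test had genotype as its only term and did not use this pairing. The fit with the replicate block is given where it changed an outcome. Alternatives were edgeR 4.0.16, limma 3.58.1 (voom and trend, on log2 of the signal plus 1), other size factors and filters, the block, and leaving out libraries; a correction for GC content, with and without the block, was added after seeing the data.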

Additional observations from a re-analysis of the deposited data

How the results depend on the processing

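Of the 20 alternative fits, 19 called 0 of the 7 members that the study did not name, and the replicate block called 1 (Aff4). The share of all tested genes called ran from 0.266% (limma-voom) to 4.25% (replicate block) over these fits. Members passing, counted over those 7, numbered 0 with DESeq2 in the main test and 0 each time 1 library was left out. Mllt11 kept its direction in 20 of 20, from -0.33 to -0.24 on the log2 scale. Partner genes passing numbered 0 in the main test, 1 with the block, 3 without both replicate 1 libraries, 1 with the block and GC correction, and 0 to 2 when 1 library was left out. Over all genes, 253 passed (147 higher and 106 lower), 53 by edgeR (44 higher), 45 by limma-voom (38 higher), 51 by limma-trend (42 higher), 533 with the block (228 higher), 500 without both replicate 1 libraries (238 higher), 495 with the block and GC correction (215 higher), 232 with total-count size factors (168 higher) and 112 to 496 when 1 library was left out, the highest without WT replicate 1. Near 0, Aff1 turned to 0.0053 with total-count size factors, 0.042 without both replicate 1 libraries and 0.00065 with the block and GC correction; leaving out 1 library gave -0.082 to 0.056, positive without L192P replicate 4 or WT replicate 1. Aff3 turned to 0.016 with total-count size factors, 0.0030 without both replicate 1 libraries, 0.013 with GC correction and 0.011 with the block added to it; leaving out 1 library gave -0.042 to 0.030, positive without L192P replicate 1, L192P replicate 2 or WT replicate 4. The cause was not tested. Without WT replicate 2, the values of Mllt3 and Aff2 were 0.06 and 0.20. No other call on a member or partner gene changed with the block. By Spearman correlation, with tied genes given the best rank they share, 2 of the 5 genes nearest to Mllt11 (Klhl3 and Rpa3) and 2 of those nearest to Mllt1 (Clstn3 and Hip1r, tied with other genes at 1) were among the 5 highest.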

Other observations

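Seed matches of the other microRNA families that the study pictured as enriched on the mutant protein were also present among the members. A miR-148-3p match (TGCACTG) was in the canonical 3′ UTR of 4 members (Mllt6, Mllt10, Aff1 and Aff4), against 16.6% of tested genes. A miR-345-5p match (GGGTCAG) was in Mllt6 and Aff4 (12.8% of tested genes), a miR-672-5p match (CAACCTC) in Mllt1 and Mllt3 (8.96%), and a miR-744-3p match (GGCAACA) in Mllt3 (8.41%). Aff2 and Aff3 held no match to any of the 6 families in that 3′ UTR, which has 206 bases in Aff2. Over tested genes with an annotated 3′ UTR, the median log2 fold change was -0.0097 with a miR-29-3p match and 0.0052 without. It was also lower with a match for miR-345-5p (-0.0045 against 0.0040), miR-672-5p (-0.0026 against 0.0032) and miR-148-3p (0.00036 against 0.0034). It was higher with a match for miR-92-3p (0.0103 against 0.0022) and miR-744-3p (0.0091 against 0.0023). Counting only 8-base sites turned the direction for miR-92-3p (-0.0072 with a site against 0.0031 without). The other families kept their direction. These shares and medians were not tested or adjusted for GC content or 3′ UTR length.

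Mllt11 held 1 match, to miR-29-3p, and none to the other 5 families. When only 8-base sites were counted, the miR-29-3p family matched 1 member (Mllt6), and with the longest annotated 3′ UTR it matched 4, Mllt10 being added.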
